A study of Oryza sativa with 2 samples.

Results

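Transcription factors are mostly studied at promoters, but a summit of binding can also fall inside a transcribed gene. Described here are the 1042 peaks of tagged OsbHLH002 whose summit lay inside a rice gene, more than 500 bp downstream of its start, among 12487 listed peaks. A peak is a stretch of genome with more fragments in the immunoprecipitate (IP) than in the local background, and its summit is the position of the highest excess. The peak had to be listed on exactly 1 gene, be under 2000 bp wide and belong to a gene not described as a transposon. The members were thus chosen by the position and width of peaks called in this IP, so every value of the peaks is given as a description, with no test.

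The study asked where OsbHLH002 sits on the genome, in connection with secondary cell wall formation. Both libraries came from transgenic rice in which the mutant Osbhlh002-1 carried gOsbHLH002-3FLAG, a copy of the gene tagged with FLAG: 1 IP library made with a FLAG antibody, and 1 input library made without immunoprecipitation. The labels used here name no tissue, growth stage or number of plants or lines, and plants without the tag were not analysed here. With 1 IP there was no replicate, so no difference could be set against a spread between plants.

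OsbHLH002, of the bHLH (basic helix-loop-helix) family, is related to the Arabidopsis inducers of CBF expression, which act in cold response and in the stomatal lineage. Proteins of this family bind DNA as dimers, commonly at short palindromic sites called E-boxes. OSH1, named beside it in the title of the study, is a class I KNOX homeobox gene that helps to keep the shoot meristem undifferentiated. Introns and other sites inside genes can carry regulatory DNA. The list analysed here does not divide genes into exons, introns and UTRs, so a summit is placed only by its distance from the start and end of the gene.

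Gene body peaks were a minority. Of 12487 listed peaks, 10355 were on 1 gene, 10190 of these were under 2000 bp wide, and 9620 of these were not at transposon genes. Within these 9620, the 1042 gene body peaks made up 10.8%. The others had the summit within 500 bp of the gene start (5195 gene start peaks), more than 500 bp upstream (2616 far upstream peaks) or beyond the end of the gene (767 peaks). Left out of the members, although otherwise within the rule, were 157 peaks listed on several genes, 68 at transposon genes and 16 of at least 2000 bp.

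The gene body peaks were spread over the first 2 kb or so of their genes, the reach of the list. A listed peak overlaps the stretch from 2000 bp upstream to 2000 bp downstream of a gene start, so deeper positions in long genes could not appear. Summits lay 504 to 2460 bp downstream, with a median of 1141.5 bp (quartiles 786 and 1535.75 bp). The genes were 569 to 24718 bp long, with a median of 2932 bp, against 3268 bp for genes with a gene start peak. There were 624 summits closer to the gene start and 418 closer to the gene end. The peak reached over the start of the gene in 39 cases and over its end in 74. The rule kept only peaks listed on 1 gene, so overlap with another listed gene was limited in advance. It occurred for 5 of the 1042 peaks, and 2 summits lay inside such a gene. Genes outside the list were not checked.

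**Figure D1:**
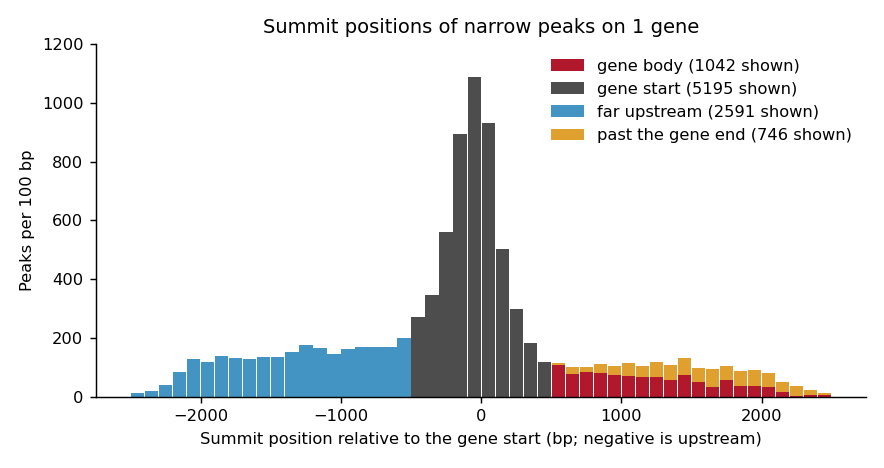
Number of narrow peaks on 1 gene per 100 bp of summit position relative to the gene start (negative values are upstream), with gene body peaks in red. All 1042 gene body peaks lie between 504 and 2460 bp downstream, to the right of the 5195 gene start peaks, and share that range with peaks past the gene end; 2591 of the far upstream and 746 of the peaks past the gene end fall within the plotted range.

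The peaks just inside the distance limit, at LOC_Os03g26910 (504 bp downstream) and LOC_Os10g07548 (505 bp), had folds of 2.57 and 2.26. Those just outside it, at LOC_Os06g22360 (498 bp) and LOC_Os06g12600 (497 bp), had folds of 4.04 and 2.80. By width, LOC_Os01g16960 (1971 bp, fold 6.45) and LOC_Os10g05990 (1965 bp, fold 36.2) were just inside, and LOC_Os07g09670 (2058 bp, fold 4.02) and LOC_Os09g28180 (2094 bp, fold 8.82) just outside. At the gene end, LOC_Os03g09230 (5 bp before the end, fold 2.43) and LOC_Os07g42580 (6 bp, fold 2.58) were inside. LOC_Os03g15790 (fold 2.38) and LOC_Os11g37960 (fold 2.76) were outside by 1 bp.

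Gene body peaks held fewer IP fragments than the other groups of narrow peaks. Gene start peaks include summits up to 500 bp downstream, many of which also lie inside genes. The fold at a summit is the authors' value, IP over local background, and fragment counts were recovered from it and from the deposited p. Gene body peaks had a median of 16 IP fragments at the summit (quartiles 13 and 21), against 20 (16 and 26) in gene start peaks, 20 in far upstream peaks and 19 past the gene end. The median fold was 2.76 in gene body peaks (exact 95% interval of the median 2.72 to 2.76), 3.04 in gene start peaks (3.00 to 3.08), 3.32 in far upstream peaks and 3.16 past the gene end. These intervals treat peaks as separate units and say nothing of other plants.

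The median local background, estimated from the input, was lower in gene body peaks than in gene start peaks and close to that of the other groups. It was 4.87 fragments in gene body peaks and 5.66 in gene start peaks. The background was at its genome-wide level of 4.44, the lowest value the caller uses, in 332 gene body peaks (31.9%, exact 95% binomial interval 29.0 to 34.8%), against 1071 gene start peaks (20.6%, 19.5 to 21.7%). Among far upstream peaks it was 31.2%, and past the gene end 35.5%. The median background was 4.87 in far upstream peaks and 4.76 past the gene end.

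Of the 1042 peaks, 883 (84.7%) had a q of 0.05 or less, beside 90.1% of all listed peaks. A fold of 5 or more was reached by 66 (6.33%), beside 13.9% of all listed peaks. The median −log10 q was 2.56 in gene body peaks and 3.79 in gene start peaks. Width was 229 to 1971 bp with a median of 392.5 bp in gene body peaks, against 439 bp in gene start peaks. Since the rule drew on the same peak calls, these shares describe the set and support nothing about it.

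**Figure D2:**
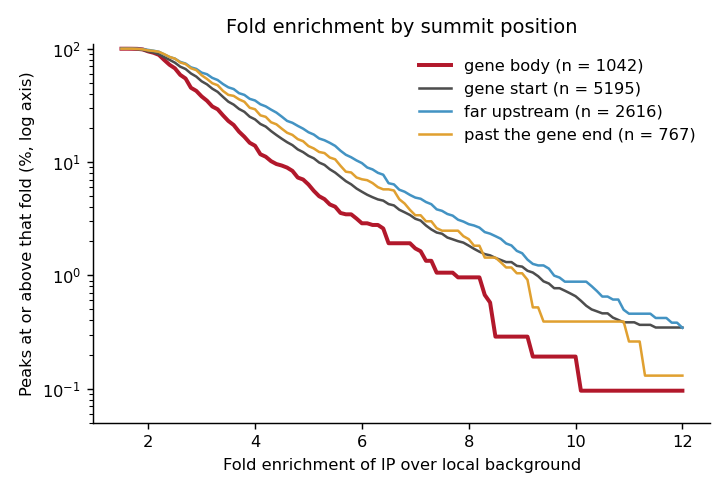
Percent of peaks (log axis) at or above each fold enrichment, by position of the summit. The gene body line (red) lies below the others at a fold of 5, where it stands at 6.33%; 1 gene body peak, of fold 36.2, lies beyond the plotted range.

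The share of gene body peaks was lower in bins of more fragments. Of the narrow single-gene peaks with 10 to 12 IP fragments, 150 of 656 (22.9%, exact 95% binomial interval 19.7 to 26.3%) had the summit inside the gene body. The share was 15.5% at 13 to 16 fragments, 11.3% at 17 to 20 and 7.39% at 21 to 26. It was 5.09% at 27 to 40 fragments and 4.66% (25 of 536, interval 3.04 to 6.81%) at 41 or more. Along the gene the fold varied little: the median fold was 2.66 for summits 500 to 750 bp downstream, 2.94 at 1250 to 1500 bp and 2.76 beyond 2000 bp.

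**Figure D3:**
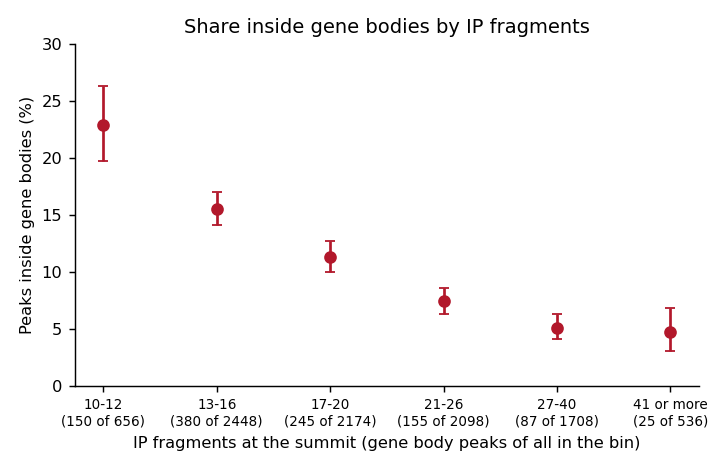
Percent of narrow single-gene peaks with the summit inside the gene body, by IP fragments at the summit, with exact 95% binomial intervals and counts under each bin. The share is 22.9% in the bin of fewest fragments and 4.66% in the bin of most.

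OSH1 (LOC_Os03g51690, chromosome 3, 29596277 to 29606861, minus strand) was a member of middling strength. Its peak ran from 29605487 to 29605791, and the summit lay 1271 bp downstream of the start in a gene of 10585 bp. The summit held 20 IP fragments over a background of 5.19, a fold of 3.39, and its −log10 q was 4.63. Among gene body peaks 271 had a higher fold and 769 a lower one, so it sat just under the upper quartile of 3.44. Counting error alone gives 20 fragments an exact 95% Poisson interval of 12.2 to 30.9, or folds of 2.13 to 5.15 at that background. The fragment counts of 824 of the 1042 gene body peaks (79.1%) fell inside this interval, so the OSH1 peak cannot be ranked against most of them. The nearest peak of 2000 bp or more lay 23722 bp away.

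The strongest gene body peak by far was at POEI14 (LOC_Os10g05990, chromosome 10, 3020701 to 3022137), which encodes a protein of the pollen Ole e I and extensin family, secreted proteins of which some are found in cell walls. It had 196 IP fragments (exact 95% Poisson interval 170 to 225) over the genome-wide background, a fold of 36.2. Its summit lay 979 bp into this gene of 1437 bp, but the peak, from 3020425 to 3022389, covered the whole gene and reached past both ends. The next gene body peak, at the glutaredoxin gene LOC_Os10g34170, had 56 fragments and a fold of 10.03. POEI14 lies in a row of 4 listed family genes on chromosome 10, whose peaks span 19890 bp, and 3 of them were gene body peaks. POEI12 (LOC_Os10g05970) had 46 fragments (fold 8.22, summit 673 bp downstream) and POEI15 (LOC_Os10g06000) had 28 (fold 4.68, 805 bp). The POEI15 peak reached over the end of its gene. The fourth gene, POEI13 (LOC_Os10g05980), had its summit 118 bp upstream of the start, with 21 fragments and a fold of 4.04. The remaining 8 listed genes of the family elsewhere in the genome were no members. These neighbouring genes belong to 1 family, and the labels do not say how reads from similar copies were placed.

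Behind POEI14 came peaks of 44 to 71 fragments, and 7 of the 12 gene body peaks of highest fold were at genes annotated only as expressed proteins. The class of unknown genes to which these belong held 328 of all 1042 gene body peaks (31.5%). Of the 3063 narrow single-gene peaks of that class 10.7% were gene body peaks, close to the 10.8% over all genes. LOC_Os04g35230 had 50 fragments and a fold of 9.20, and LOC_Os11g31950 had 45 and a fold of 8.46 in a gene of 13853 bp. LOC_Os04g35000 had the most fragments of these, 71, over a background of 7.55, for a fold of 8.42. The others were LOC_Os06g43870 (fold 8.38), LOC_Os01g65610 (8.28), LOC_Os11g02720 (8.22) and LOC_Os08g13130 (7.39). The peaks at LOC_Os01g65610, LOC_Os11g02720 and LOC_Os08g13130 reached over the start of the gene. The BTB-domain gene LOC_Os02g39910 had a fold of 8.46. Genes of this class are known as adaptors of ubiquitin ligases. The intervals of these peaks overlap: 45 fragments allow 32.8 to 60.2, and 71 allow 55.5 to 89.6. Their order is therefore not resolved, whereas the interval of POEI14 lies above all of theirs.

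The gene of OsbHLH002 itself (LOC_Os11g32100, chromosome 11, 18922046 to 18925259, plus strand) was a member by position, with its summit 581 bp downstream of the start. It had 34304 IP fragments over a local background of 32504, which is 7321 times the genome-wide background, and a fold of 1.06, the lowest of all. Both libraries came from plants with the tagged copy of this gene, and what raised the input there was not tested. In the excess of IP over input, binding cannot be told apart from other sources. Leaving this peak out gave 1041 members with a median fold of 2.76.

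Wall and glycan enzyme genes had the largest share of gene body peaks among 14 role classes drawn from the descriptions. Of 324 narrow single-gene peaks at such genes, 67 were in the gene body (20.7%, exact 95% binomial interval 16.4 to 25.5%), against 1042 of 9620 (10.8%, 10.2 to 11.5%) over all genes. Immune receptor genes came next with 11 of 68, whose interval of 8.36 to 27.1% spans both shares. A summit more than 500 bp downstream needs a gene long enough to hold it, so the share was also taken within gene length. Among genes over 1000 and up to 2000 bp long it was 20% for wall and glycan enzymes against 13.8% for all genes. From 2000 to 3000 bp it was 24.6% against 14.8%, and from 3000 to 5000 bp 22.1% against 11.8%. The intervals for wall and glycan enzymes were wide: 11.9 to 30.4% at 1000 to 2000 bp and 14.1 to 37.8% at 2000 to 3000 bp, which both include the share over all genes, and 14.6 to 31.3% at 3000 to 5000 bp, which does not. In fold they were like other gene body peaks, with a median of 2.79 against 3.36 for gene start peaks of the same class. A q of 0.05 or less was found for 59 of the 67, beside 84.7% of all gene body peaks.

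Among them were polysaccharide synthases. CSLF6 (LOC_Os08g06380), a synthase of the mixed-linkage glucan of grass walls, had 41 fragments over a background of 6.82 (fold 5.37), 1041 bp downstream. Its peak, from 3549436 to 3551054, reached over the start of the gene at 3550661. CSLA6 (LOC_Os02g51060), a mannan synthase, had a fold of 3.73, CSLH1 (LOC_Os10g20090) 3.36 and CSLF8 (LOC_Os07g36630) 3.31. The xyloglucan fucosyltransferase genes LOC_Os06g10960 and LOC_Os02g17534, for side chains of a hemicellulose, had folds of 4.60 and 3.82. These peaks held 17 to 41 fragments, and only that of CSLF6 reached a fold of 5, as 6.33% of all gene body peaks did.

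Genes that loosen or polymerize the wall were also members, mostly with weak peaks. The expansins, which loosen walls, had 6 of 18 peaks in the gene body (interval 13.3 to 59.0%), with folds of 2.10 to 5.52. LOC_Os01g60770 led them with 29 fragments, 764 bp downstream. The class III peroxidases, which can couple lignin monomers, had 12 of 33 (36.4%, interval 20.4 to 54.9%), against 10.8% over all genes. Their folds were 2.21 to 3.55. These families were chosen after the data were seen, and their shares were not taken within gene length. The laccases, oxidases that act in lignin polymerization, had 3 of 5 (interval 14.7 to 94.7%): LOC_Os01g62600 (fold 2.73), LOC_Os03g16610 (2.69) and LOC_Os01g62480 (2.39). The AMP-binding genes, a family that includes the CoA ligases of lignin synthesis, had 4 of 18, led by LOC_Os03g04130 (fold 3.64). Of the 12 peroxidase peaks 11 had a q of 0.05 or less, beside 84.7% of all gene body peaks. None reached a fold of 5, beside 6.33% of all gene body peaks. With 12 peaks, these counts of q and fold cannot tell the family from other gene body peaks in strength.

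Transcription factor genes, 62 of 461 (13.4%, interval 10.5 to 16.9%), had a median fold of 2.85, against 3.30 in gene start peaks of the same class. OsbHLH002 is not among the 62, since its description placed it in the class of other genes. WRKY51 (LOC_Os04g21950) led with 49 fragments over a background of 6.17 (fold 6.98), 1700 bp into a gene of 1894 bp, so close to its end. A further listed peak, of higher fold (7.35), overlapped the stretch within 2000 bp of the start of WRKY51. The AP2-domain genes LOC_Os01g64790 and LOC_Os08g34360 had folds of 6.35 and 5.94. WRKY45 (LOC_Os05g25770), a regulator of defence in rice, had 11 fragments and a fold of 2.21, with a −log10 q of 1.01, which is a q above 0.05. The heat shock factor gene LOC_Os08g43334 reached 5.26.

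OSH1 was 1 of 9 homeobox genes among the members. The homeobox leucine zipper genes, another homeobox family of plants, had 6 of 13 peaks in the gene body (46.2%, interval 19.2 to 74.9%). The share over all genes was 10.8%, and AP2/ERF genes (7 of 67, 10.4%) and WRKY genes (5 of 45, 11.1%) were near it. These family shares were not taken within gene length. The strongest leucine zipper peaks were at LOC_Os09g29460 (fold 4.64, 25 fragments), LOC_Os08g37580 (3.71, 22 fragments) and LOC_Os02g35770 (3.49, 18 fragments). All were within the counting interval of OSH1 and so not ranked against it. The others were LOC_Os02g49700 (2.84), LOC_Os03g08960 (2.55) and LOC_Os09g21180 (2.10). MYB genes, among which are known activators of the secondary wall, had 13 of 72 (interval 9.98 to 28.9%), with folds of 1.94 to 3.68. NAC genes, another family with known wall regulators, had 8 of 37 (interval 9.83 to 38.2%), with folds of 1.90 to 3.49. A q of 0.05 or less was found for 5 of the 8, beside 84.7% of all gene body peaks. Of the bHLH genes, 5 of 42 were members, 1 of them OsbHLH002 itself with its high input, the strongest being LOC_Os01g06640 (fold 4.33) and LOC_Os02g39140 (4.04). The summit at LOC_Os01g06640 lay 125 bp before the gene end, which the peak reached over. No MYB, NAC or bHLH gene body peak reached a fold of 5, which only 6.33% of all gene body peaks did.

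**Figure D4:**
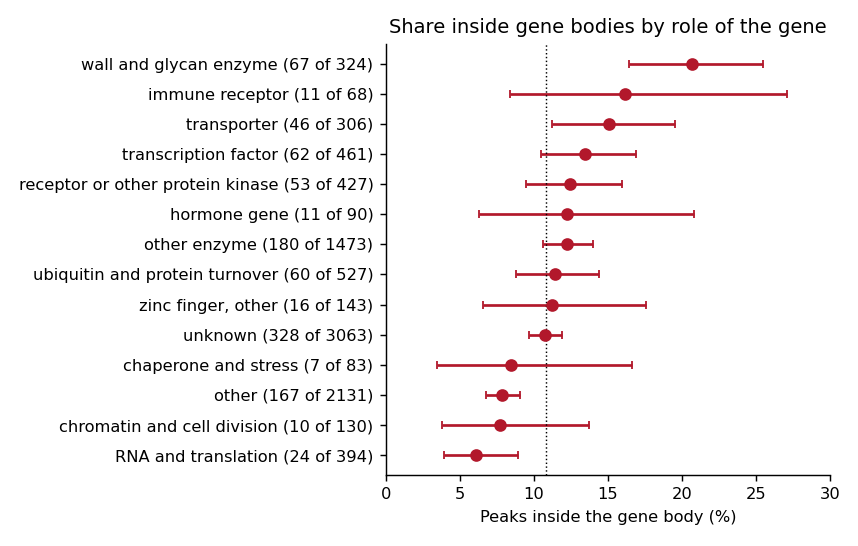
Percent of the narrow single-gene peaks of each role class whose summit lies inside the gene body, with exact 95% binomial intervals and the counts beside each class; the dotted line is the share over all genes, 10.8%. Wall and glycan enzymes are highest at 20.7% and RNA and translation genes lowest at 6.09%.

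Signalling and hormone genes followed the common pattern of modest folds. Protein kinase genes had 53 of 427 peaks in the gene body (12.4%), led by LOC_Os05g02020 (fold 5.33, 28 fragments) and LOC_Os01g74200 (5.15). Of 17 MAP3K genes, kinases at the head of phosphorylation cascades, 6 were members (interval 14.2 to 61.7%), against 10.8% over all genes. LOC_Os02g21700 (4.42) and LOC_Os02g35010 (4.33) led them. The summit at LOC_Os02g21700 lay 60 bp before the gene end, which the peak reached over. The protein phosphatases 2C, which include repressors of abscisic acid signalling, had 8 of 37, with LOC_Os04g52000 at 41 fragments and a fold of 6.30. The peak at LOC_Os04g52000 reached over the start of the gene. Among 11 hormone genes, the gibberellin 2-beta-dioxygenase gene LOC_Os04g33360, for an enzyme type that inactivates gibberellins, had a fold of 5.59. The cytokinin dehydrogenase genes, whose products break down cytokinins, had 3 of 4 listed narrow peaks in the gene body: LOC_Os01g09260 (fold 3.71), LOC_Os08g35860 (3.01) and LOC_Os01g56810 (2.76). The interval of that share was 19.4 to 99.4%, and these family shares were not taken within gene length. Immune receptor genes had 11 of 68, led by LOC_Os08g09110 (4.04) and LOC_Os12g39620 (3.41). None of the 11 reached a fold of 5, beside 6.33% of all gene body peaks.

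Among metabolic genes, the cytochrome P450 genes, oxidases of many plant metabolites, had 20 of 68 peaks in the gene body (29.4%, interval 19.0 to 41.7%). In genes of 1000 to 2000 bp the share was 28% (12.1 to 49.4%), against 13.8% over all genes. From 2000 to 3000 bp it was 29.2% (12.6 to 51.1%) against 14.8%, and from 3000 to 5000 bp 21.4% (4.66 to 50.8%) against 11.8%. All of these length intervals include the share over all genes. LOC_Os03g55240 had 47 fragments (fold 7.75) and LOC_Os10g38110 a fold of 4.78, while the median of the 20 was 2.85. The lipase gene LOC_Os01g46370 had a fold of 7.17. Transporter genes had 46 of 306 (15.0%), led by the MATE efflux gene LOC_Os04g48290 (7.08) and the phosphate transporter gene LOC_Os03g05620 (5.98). The summit at LOC_Os03g05620 lay 25 bp before the gene end, which the peak reached over. It was 3012 bp from that of a peak of 2000 bp or more. Another listed peak, of fold 6.56, overlapped the stretch within 2000 bp of the start of this gene. In ubiquitin and protein turnover genes, 60 of 527, the carboxypeptidase gene LOC_Os01g22980 (6.43) followed LOC_Os02g39910. Within this class, F-box genes had 15 of 147 peaks in the gene body (10.2%) and C3HC4 RING genes 12 of 95 (12.6%), near the 10.8% over all genes.

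RNA and translation genes had the smallest share, 24 of 394 (6.09%, interval 3.94 to 8.93%), and a median fold of 2.46. Ribosomal protein genes had 3 of 74 (4.05%, interval 0.844 to 11.4%). Among RNA and translation genes of 1000 to 2000 bp the share was 6.38% (interval 1.34 to 17.5%), against 13.8% over all genes, which lies inside that interval. At 2000 to 3000 bp it was 6.38% (2.38 to 13.4%) against 14.8%, and at 3000 to 5000 bp 4.48% (1.66 to 9.49%) against 11.8%, both outside. The strongest were LOC_Os05g24684, annotated as a structural constituent of ribosome (fold 5.26), and the splicing factor gene LOC_Os01g47750 (3.86). Chromatin and cell division genes had 10 of 130, led by the histone deacetylase gene LOC_Os05g36920 (5.46) and the kinesin gene LOC_Os04g28260 (5.06). Chaperone and stress genes had 7 of 83, led by LOC_Os10g37770 (5.33) with LOC_Os06g09679 next (2.76). The peak at LOC_Os10g37770 reached over the start of the gene. Among 16 other zinc finger genes the highest folds were 3.47 (LOC_Os08g44830) and 3.07 (LOC_Os01g57650).

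Gene body peaks lay more often on the minus strand, and the list more often kept the peak at the lower coordinate. Of the 1042, 617 were on minus-strand genes (59.2%, exact 95% binomial interval 56.2 to 62.2%) and 425 on plus-strand genes. Gene start peaks were evenly split (49.7%), far upstream peaks leaned the other way (41.8%), and peaks past the gene end leaned as gene body peaks did (59.5%). Each gene carried 1 peak in the list. Where another listed peak also overlapped the window of a gene, the peak kept was the one at the lower coordinate in 561 of 814 pairs (68.9%), and in 60 of 81 pairs at genes with a gene body peak. A lower coordinate is downstream for a minus-strand gene and upstream for a plus-strand gene. On chromosome 1, chosen after its values were seen, the lower peak was kept in 125 of 135 pairs and 63.5% of gene body peaks were on the minus strand, against 436 of 679 pairs and 58.4% on the others. The labels do not give the rule that kept a peak, and its part in the strand split was not tested. The median fold was 2.76 on minus-strand and 2.75 on plus-strand genes. OSH1 is a minus-strand gene.

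**Figure D5:**
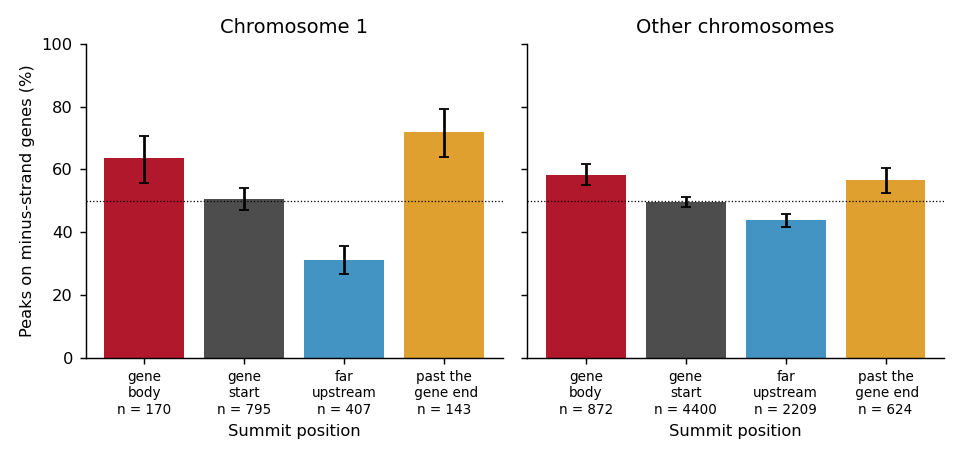
Percent of peaks on minus-strand genes by summit position, on chromosome 1 (left) and on all other chromosomes (right), with exact 95% binomial intervals and the number of peaks under each bar; the dotted line marks 50%. Gene body peaks and peaks past the gene end lie above the line and far upstream peaks below it in both panels.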

How the data were processed

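Measured were FLAG-tagged OsbHLH002 on rice chromatin (1 IP) and 1 input. Per the labels' protocols, tissue was fixed in 1% formaldehyde for 15 min and sheared to 300 to 500 bp. Bowtie2 2.4.2, MACS2 2.2.7.1, Picard and SAMtools are named in the submitters' processing notes, and build, filters and caller settings are not stated in what was used here.

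The authors deposited 1 list of IP peaks joined to genes (14709 gene entries). Its fold is a linear ratio, its p and q values are −log10, and its score is 10 times the −log10 p without decimals in 14706 entries, all as deposited. The input entered only through the background. Peak numbers ran to 22071, and the 9584 numbers without an entry were not analysed here. Gene identifiers are of the LOC_Os type. None of them (0) matched the 39387 entries of the RefSeq gene table, so OSH1 (listed as a homeobox domain protein) and OsbHLH002 (listed as inducer of CBF expression 1) were assigned from general knowledge. Coordinates are as deposited, counted from 1.

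IP fragments and background were recovered by solving fold = (IP + 1) / (background + 1) with the Poisson tail of the p. For 12486 of 12487 peaks exactly 1 whole number solved both (tolerance 0.0001 of the −log10 p plus 0.0002), and the peak at OsbHLH002 was solved without that condition. The solver was tested on simulated data. From the 0.472 weight of 1 input fragment, input depth was 2.12 times IP depth. Absolute totals of the libraries are unknown. Exact binomial and Poisson intervals (95%) cover counting error only, and amplified fragments are not independent molecules. No p-value was computed.

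Members, role classes, families and lists were chosen with earlier results of these data known. Each gene took the first of 14 keyword classes it matched, with keywords corrected after the descriptions were read, and 25 families were counted beside them. Named were OSH1, the 12 gene body peaks of highest fold, the 2 of highest fold in each class, the 3 with most IP fragments, the 3 farthest downstream and the peaks at the limits. Other genes named, such as family members and the POEI row, were chosen after their values were seen. The peaks farthest downstream were at LOC_Os04g43810 (2460 bp, fold 2.39), LOC_Os02g11020 (2439 bp, fold 2.94) and LOC_Os10g34170 (2435 bp). Python 3.11.15, scipy 1.17.1 and pandas 2.3.3 were used.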

Additional observations from a re-analysis of the deposited data

Results flagged for a closer look

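The input, seen only as the background of IP peaks, was high at the gene of OsbHLH002, with a local background of 32504 fragments on the scale of the IP, against 4.44 genome-wide. The IP held 34304 fragments there (34298 to 34310 from the rounding of the fold), 1.06 times the input. This gene is the one the plants carry in a tagged copy. What raised the input was not tested, nor whether the excess over input is binding.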

How the results depend on the processing

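No paired analysis was possible because there was 1 IP and 1 input library and no replicate. Of 79 alternative values for 12 results, 60 stayed within the interval of the reported value, or within 1.5 times a count, and 19 did not. A q limit of 0.05 gave a median fold of 2.91 and a width of 421 bp in gene body peaks, and a fold of 3.17 with 21 fragments in gene start peaks. A q limit of 0.01 left 660 gene body peaks with a fold of 3.15, 19 fragments and a width of 449.5 bp, and gave gene start peaks a fold of 3.37 with 22 fragments. Such limits remove weak peaks by construction, and the gene body median stayed below that of gene start peaks under both. Starting at 1000 bp left 621 peaks with a fold of 2.79 and 51.4% closer to the start. A width under 1000 bp gave a width of 371 bp, and in gene start peaks a fold of 2.96 with 19 fragments. Leaving out summits within 250 bp of the gene end gave 67.2% closer to the start, and keeping peaks on several genes 55.5%. Requiring an overlap of at least 50% of the peak left 1 peak on another listed gene. Minus-strand shares ran from 58.4% to 62.2%, an alternative set chosen, like leaving out OsbHLH002, after seeing the data. With a median of 16 IP fragments, depth limits the ranking of single peaks.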

Other observations

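At 29 of the 1042 genes, another listed peak had its summit within 500 bp of the gene start. The start peak had the higher fold at 20 of these genes, the lower at 7 and an equal one at 2. At LOC_Os07g38290, a plastocyanin-like gene, the gene body peak had a fold of 2.70 and the start peak 10.3. At LOC_Os01g03330, a trypsin inhibitor gene, they were 2.76 and 6.75. The other order was seen at LOC_Os09g20110, an expressed protein gene, with a gene body peak of 7.35 and a start peak of 2.78, and at OsWAK124 (LOC_Os12g16540), of the wall-associated kinase family, with 3.49 and 2.02. These genes were picked out after their values were seen. Start peaks can be seen here only where the list gave them to a neighbouring gene.

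Gene body peaks made up 9.15% of the narrow single-gene peaks on chromosome 6 and 13.9% on chromosome 10, the lowest and highest of the 12 chromosomes. On chromosome 10 their median fold was 3.07, and on chromosome 3 it was 2.68. An unlisted peak number stood directly before or after 756 of the 1042 peaks (72.6%), and those peaks were not analysed here. A peak of 2000 bp or more lay within 100 kb of 237 gene body peaks (22.7%). Of the 22071 peak numbers in all, 9584 had no entry. Neither share was taken over all listed peaks, so neither can be read as particular to gene body peaks.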
